A study of Mus musculus with 12 samples.

Results

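A set of 10 genes that mark macrophages was followed gene by gene across bulk RNA-seq of 12 mouse breast tumors. They are Adgre1, Cd68, Lyz2, Aif1, Cd14, Mertk, Axl, Cx3cr1, Folr2 and Pf4, taken by symbol as core markers of tumor macrophages, and they make up 10 of the 55401 genes in the table. All 10 passed the filter on low values, as did 15504 genes in all. Tumors were orthotopic 4T1 mammary carcinomas in Balb/c mice, treated from a tumor volume of 100 mm3. The study asked how interleukin-10 (IL-10), when joined to a blocking antibody to CSF-1R, the receptor for colony-stimulating factor 1, acts on the tumor beside either component given alone.

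Per the labels, the 4 groups differed in the protein injected. The control group received an isotype IgG, the IL-10-Fc group received recombinant IL-10 joined to an antibody Fc, and the aCSF1R group received the antibody against CSF-1R. The BF10 group received the fusion protein, which per the study's methods is human IL-10 attached to the AFS98 clone of this antibody. Each group had 3 tumors with 1 library each, named here by the replicate numbers of the labels. The labels give 6 doses while the series description gives fewer, so the number of doses is uncertain. Nothing in the labels says that each tumor came from a separate mouse, so the p-values measure the spread between these samples. The tumors were sequenced whole, and a bulk level cannot tell fewer macrophages from less RNA per macrophage.

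Macrophages are phagocytes that arise from circulating monocytes or from precursors seeded in the embryo. CSF-1R is a receptor tyrosine kinase on their surface, and its ligands CSF-1 and IL-34 sustain the survival of most macrophages. In carcinomas such cells often form a large share of the infiltrating leukocytes. IL-10 is a cytokine that acts on macrophages and T cells through STAT3. The markers fall into 4 roles: pan-macrophage and lysosomal markers (Adgre1, Cd68, Lyz2, Aif1), a pattern recognition co-receptor (Cd14), the apoptotic cell receptors Mertk and Axl, and genes linked to tissue-resident subsets or chemokine signaling (Cx3cr1, Folr2, Pf4).

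The upstream sequences of Lyz2 and Pf4, both lower in aCSF1R below, and of Axl, which was not, are shown because many macrophage genes carry short purine-rich motifs of the PU.1 type near their starts. RefSeq promoter windows (GRCm38.p6) were found for 8 of the markers, and the stretches printed hold no exon of the annotation. Capitals mark AGGAAGT or its reverse complement, searched on both strands. The Lyz2 stretch is chr10:117282322-117282522 (minus strand), the Pf4 stretch chr5:90772185-90772434 (plus strand) and the Axl stretch chr7:25788734-25788983 (minus strand).
Lyz2: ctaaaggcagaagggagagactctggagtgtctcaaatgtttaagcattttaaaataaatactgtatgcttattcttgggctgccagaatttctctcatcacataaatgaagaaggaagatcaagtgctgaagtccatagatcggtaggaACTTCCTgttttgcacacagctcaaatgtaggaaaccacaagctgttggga
Pf4: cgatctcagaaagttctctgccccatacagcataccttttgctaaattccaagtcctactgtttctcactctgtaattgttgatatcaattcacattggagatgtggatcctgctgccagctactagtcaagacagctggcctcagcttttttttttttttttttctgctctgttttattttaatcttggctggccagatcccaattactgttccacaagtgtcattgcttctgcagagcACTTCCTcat
Axl: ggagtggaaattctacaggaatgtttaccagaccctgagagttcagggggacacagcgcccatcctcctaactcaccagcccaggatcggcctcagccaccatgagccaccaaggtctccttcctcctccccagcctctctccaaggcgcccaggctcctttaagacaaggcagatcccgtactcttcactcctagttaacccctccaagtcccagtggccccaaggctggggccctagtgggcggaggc

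The motif was present in the windows of Folr2, Lyz2 and Pf4, which is 3 of 8 markers, and in 7.69% of all 32851 windows. The windows of Aif1, Cd68, Cx3cr1, Mertk and Axl did not hold it, although Aif1 also fell past the threshold in aCSF1R. A link between motif and fall was not tested. The shorter GGAAGT, which lies within AGGAAGT, was in 19.7% of windows and in the same 3 markers, and the longer GAGGAAGT was in 2.44% of windows and only in that of Pf4 among the markers. The AP-1 motif TGACTCA was in the windows of Cd68 and Folr2 (4.46% of all windows), and TATAAA was in 0 of the 8 markers and in 12.4% of all windows. These strings were chosen after some of the windows had been looked at, and a match is a string of letters in the window, not a bound site.

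Levels are given in TPM, the deposited FPKM rescaled to the same total in each library, a scale per transcript length on which genes can be compared. Changes are differences of log2(TPM + 1) between groups, which understate the fold of low genes, from limma fitted to all tested genes. A gene passed the threshold at a Benjamini-Hochberg adjusted p below 0.05 over all 15504 genes and a change of at least 1.5-fold. The libraries formed 2 sets that do not follow treatment. The deposited FPKM summed to between 782919 and 921581 in 5 higher-sum libraries (control replicates 4 and 7 and 1 replicate of each treated group, namely IL-10-Fc 7, aCSF1R 8 and BF10 6) and to between 609695 and 648413 in 7 lower-sum libraries. Relative depth was 0.933 to 1.06, estimated from the value of a single read in 33 to 56 low genes per library. That estimate kept only values close to the lowest of each gene, so it cannot show a large difference in depth. Genes of ribosomal proteins held 21.3% to 26.1% of the FPKM in the higher-sum set against 12.9% to 15.5% in the other. Because control had 2 higher-sum libraries and each treated group 1, results are also given from a model that includes the set.

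Most of the markers were lower in aCSF1R tumors than in every other group, and Axl was not. Against control, 4 of 10 markers fell past the threshold in aCSF1R (Lyz2, Aif1, Pf4 and Adgre1) and 0 rose, where 0.568% of all tested genes fell. The groups did not overlap for 8 of 10 markers, the aCSF1R libraries lying below every control library, against 3.68% of all tested genes. The median change of the 10 markers was -1.96, and that of all tested genes was 0.24. In the model with the library set 7 of 10 fell, Cd68, Folr2 and Cx3cr1 in addition, where 1.93% of all genes fell.

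**Figure D1:**
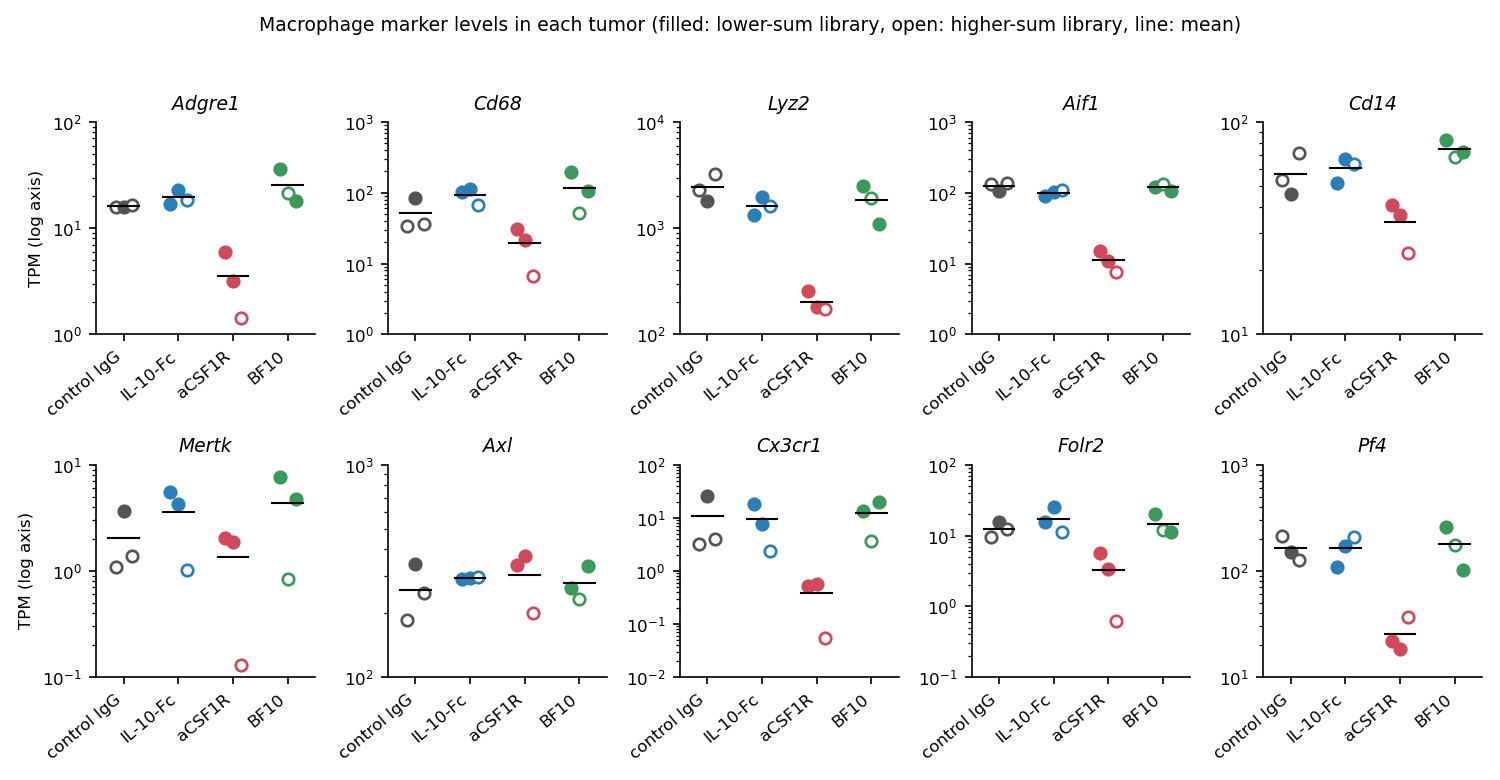
TPM of each marker (log axis) in the 3 tumors of each group, with filled points for lower-sum and open points for higher-sum libraries and a line at the mean. In 8 of the 10 panels the aCSF1R points lie below all control points, while those of Mertk and Axl overlap with control.

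Lyz2 (ENSMUSG00000069516, chromosome 10, 117277331 to 117282321 of GRCm38, minus strand, 4 exon blocks) encodes lysozyme, a secreted enzyme that cuts bacterial cell walls, and was the most abundant marker. Its TPM was 2309, 1812 and 3259 in control, 1332, 1949 and 1605 in IL-10-Fc, 254, 181 and 174 in aCSF1R, and 2517, 1934 and 1105 in BF10. Every aCSF1R library was below every library of the other groups, which overlapped with each other. The aCSF1R mean was 8.26% of the control mean, and the log2 change was -3.57 (SE 0.33, adjusted p 0.000641 by limma). Neutrophils also express Lyz2, and the transcript shares 96.0% of aligned positions with its paralog Lyz1, so reads may be split between them. Of the 75-nt windows of the Lyz2 transcript, 5.96% also occur in Lyz1. Lyz1 was low, from 0.0977 to 8.23 TPM over the 12 libraries.

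Aif1 (ENSMUSG00000024397, chromosome 17, 35170991 to 35176068, minus strand, 7 exon blocks) encodes IBA1, an actin-binding protein used to stain macrophages and microglia. It was at 133, 107 and 139 TPM in control, 89.7, 103 and 108 in IL-10-Fc, 14.9, 10.8 and 7.70 in aCSF1R, and 122, 131 and 106 in BF10. No aCSF1R library came near another group, and the other groups lay within a narrow band. The change in aCSF1R was -3.42 (SE 0.24, adjusted p 0.000212 by limma), and its aCSF1R mean was 8.82% of control. Of the 10 markers Aif1 had the largest share of its variance between groups, 97.8% of the sum of squares of log2(TPM + 1), with Lyz2 next at 94.4%.

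Pf4 (ENSMUSG00000029373, chromosome 5, 90772435 to 90773383, plus strand, 3 exon blocks) encodes platelet factor 4, a chemokine stored in platelets and also made by some macrophages. Its TPM was 212, 151 and 128 in control, 108, 173 and 210 in IL-10-Fc, 21.7, 18.3 and 37.2 in aCSF1R, and 258, 176 and 101 in BF10. Again the aCSF1R libraries stood alone below the others, with a change of -2.66 (SE 0.40, adjusted p 0.0105 by limma). Platelet genes were near the floor, since 5 platelet markers together summed to between 2.24 and 8.35 TPM over the 12 libraries. Among them Ppbp was at 2.38, 3.68 and 1.21 TPM in control and 0.228, 0.295 and 0.694 in aCSF1R, also without overlap (-1.23, limma adjusted p 0.532). The part of platelets in the level of Pf4 was not tested. The call of Pf4 was lost without control replicate 4, aCSF1R replicate 4 or aCSF1R replicate 6, with adjusted p of up to 0.0685, and with median-of-ratios scaling.

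Adgre1 (ENSMUSG00000004730, chromosome 17, 57358691 to 57483527, plus strand, 22 exon blocks) encodes F4/80, an adhesion receptor that has long served as the defining marker of mouse macrophages. It was at 16.0, 15.9 and 16.7 TPM in control, at 16.9, 22.9 and 18.6 in IL-10-Fc, at 6.00, 3.20 and 1.44 in aCSF1R and at 36.3, 21.5 and 18.2 in BF10. The 3 control libraries were the tightest group, and each IL-10-Fc and BF10 library lay above all of them. The fall in aCSF1R was -2.05 (SE 0.39, adjusted p 0.0492 by limma), just inside the threshold, and it was lost in 10 of the 12 fits that left out 1 library and with a pseudocount of 0.1. In the model with the set its adjusted p was 0.00482.

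Cd68 (ENSMUSG00000018774, chromosome 11, 69664213 to 69666153, minus strand, 6 exon blocks) encodes a lysosomal glycoprotein of phagocytes. Its TPM was 33.8, 84.1 and 36.7 in control, 101, 114 and 67.8 in IL-10-Fc, 31.2, 21.4 and 6.63 in aCSF1R, and 195, 51.1 and 106 in BF10. The aCSF1R libraries were below all control libraries, but the highest of them came close to the lowest control. The change was -1.45 (95% confidence interval -2.79 to -0.11, adjusted p 0.893), and -1.88 in the model with the set (adjusted p 0.00416, both by limma).

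Folr2 (ENSMUSG00000032725, chromosome 7, 101839988 to 101857194, minus strand, 8 exon blocks) encodes a folate receptor that marks a tissue-resident macrophage subset. It was at 9.60, 15.3 and 12.4 TPM in control, 15.3, 25.1 and 11.3 in IL-10-Fc, 5.74, 3.38 and 0.629 in aCSF1R, and 20, 12 and 11.3 in BF10. The aCSF1R libraries were again the lowest, and the other groups overlapped. The change of -1.86 had an adjusted p of 0.301 by limma (0.00813 in the model with the set). Its paralog Folr1 did not exceed 0.520 TPM in any library.

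Cx3cr1 (ENSMUSG00000052336, chromosome 9, 119901616 to 120069879, minus strand, 4 exon blocks) encodes the receptor for the chemokine fractalkine. Its TPM was 3.15, 25.7 and 3.91 in control, 18.5, 7.77 and 2.35 in IL-10-Fc, 0.520, 0.574 and 0.0543 in aCSF1R, and 13.2, 3.62 and 19.7 in BF10. It had the smallest share of its control mean left in aCSF1R, 3.51%, yet the control mean leaned on replicate 5. The change of -2.58 carried the largest error of the 10 (SE 0.83, adjusted p 0.605 by limma), and was -3.17 in the model with the set (adjusted p 0.00172).

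Cd14 (ENSMUSG00000051439), the co-receptor that hands lipopolysaccharide to TLR4, was at 53.5, 45.8 and 71.3 TPM in control and at 40.7, 36.6 and 24.1 in aCSF1R. It was at 51.6, 66.7 and 63.1 in IL-10-Fc and at 82.3, 68.6 and 72.4 in BF10. The aCSF1R libraries lay below the rest by a small margin, since their mean was still 59.4% of control. The change was -0.74 (95% confidence interval -1.31 to -0.18, adjusted p 0.735 by limma, 0.180 in the model with the set).

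Mertk and Axl belong to the TAM family of receptor tyrosine kinases, which bind GAS6 and PROS1 and let phagocytes take up dying cells. Mertk (ENSMUSG00000014361, chromosome 2, 128698956 to 128802894, plus strand, 19 exon blocks) was low, at 1.10, 3.68 and 1.37 TPM in control, 5.53, 4.29 and 1.02 in IL-10-Fc, 2.06, 1.89 and 0.130 in aCSF1R, and 7.63, 0.844 and 4.74 in BF10. In each group its lowest value was that of a higher-sum library, and the groups overlapped. Its change in aCSF1R was -0.41 (95% confidence interval -1.86 to 1.05, adjusted p 0.893 by limma). At these levels the log2(TPM + 1) scale leaves little room for a fall, so a large loss of Mertk was not excluded.

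Axl (ENSMUSG00000002602, chromosome 7, 25757273 to 25788705, minus strand, 19 exon blocks) was second only to Lyz2 in level, with a mean of 283 TPM over the 12 libraries. It was at 185, 342 and 248 TPM in control, 289, 294 and 296 in IL-10-Fc, 337, 370 and 200 in aCSF1R, and 262, 233 and 335 in BF10. All 4 groups overlapped, and only 9.45% of its sum of squares lay between groups. Its change in aCSF1R was 0.22 (95% confidence interval -0.41 to 0.85, adjusted p 0.893 by limma). Scaling by the median of ratios moved it to -0.013, while sample quality weights, a fit that did not converge, gave a rise of 0.64 (limma adjusted p 0.00229). Axl is also expressed by carcinoma cells and fibroblasts, and the share of each in this level was not tested.

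**Figure D2:**
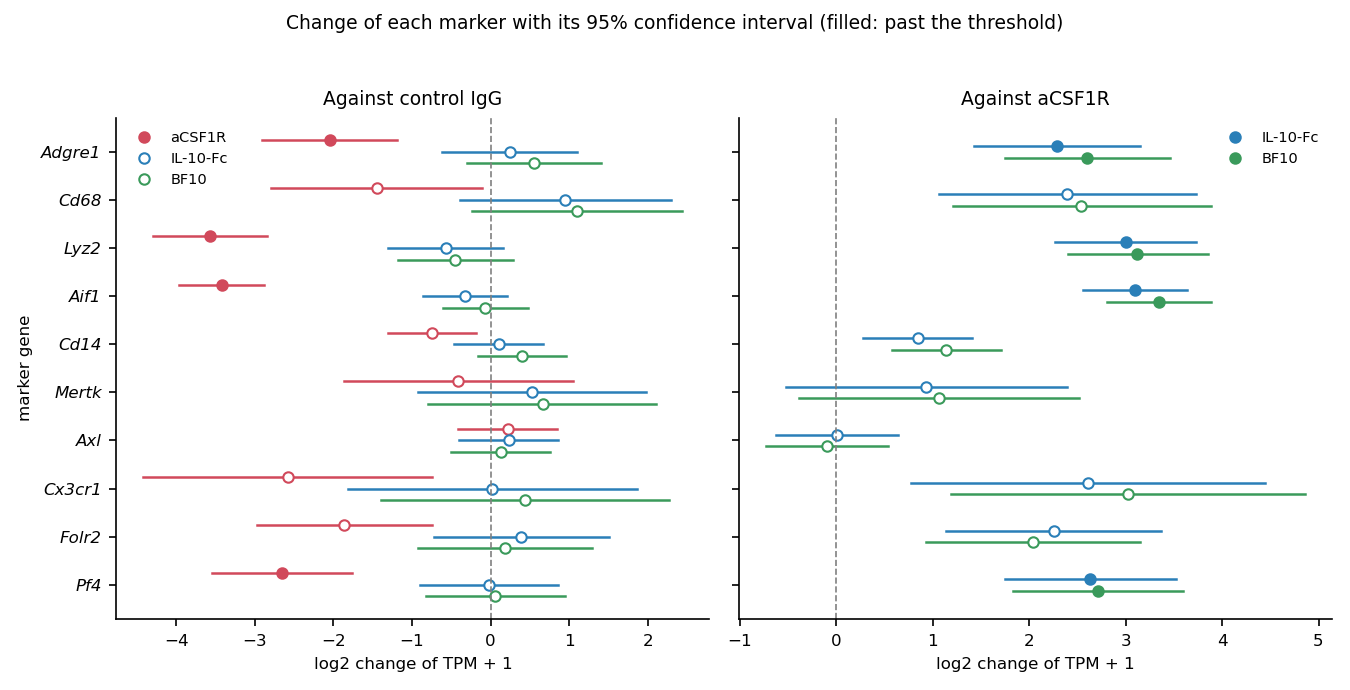
Change of each marker on the log2(TPM + 1) scale with its 95% confidence interval, against control IgG (left) and against aCSF1R (right), filled where the threshold was passed. The filled points are those of Lyz2, Aif1, Pf4 and Adgre1 in aCSF1R on the left and in both IL-10-Fc and BF10 on the right, and the intervals of Axl span 0 throughout.

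The next comparisons ask whether the fusion protein and IL-10-Fc left the markers at the level of control. In BF10 against control 0 of 10 markers passed the threshold, as did 0 of all tested genes (0%). No marker reached an unadjusted p below 0.05 in limma, against 234 of all 15504 genes. At so small a share, 0 of 10 does not set the markers apart from other genes. The changes ran from -0.45 for Lyz2 (95% confidence interval -1.18 to 0.28) to 1.10 for Cd68 (-0.24 to 2.44), with a median of 0.29 beside 0.32 over all genes. In IL-10-Fc against control 0 of 10 passed, where 0.00645% of all genes did. Likewise 0 markers and only 224 of the 15504 genes had an unadjusted p below 0.05 by limma. These changes ran from -0.57 for Lyz2 (95% confidence interval -1.30 to 0.16) to 0.95 for Cd68 (-0.39 to 2.29). For each marker the interval reached beyond a change of 1.5-fold in at least 1 direction, in BF10 and in IL-10-Fc alike.

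Adgre1 was the 1 marker whose groups did not overlap with control. All BF10 libraries lay above it, as in 2.36% of all tested genes, with a change of 0.55 (95% confidence interval -0.30 to 1.41), and all IL-10-Fc libraries did too, as in 4.75% of genes, with a change of 0.24 (-0.62 to 1.10). Neither change passed the test. With median-of-ratios scaling they were 0.19 in BF10 and -0.18 in IL-10-Fc, and in the deposited FPKM both groups overlapped with control. In BF10 against IL-10-Fc 0 of 10 markers passed, as did 0 of all genes (0%). Here 0 markers and only 42 of 15504 genes had an unadjusted p below 0.05 by limma. The changes ran from -0.22 for Folr2 to 0.42 for Cx3cr1. Cd14 alone did not overlap there, every BF10 library being above every IL-10-Fc library (0.619% of all genes), with a change of 0.30 (95% confidence interval -0.26 to 0.86).

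BF10 was then set against the antibody without IL-10. The 4 markers that fell in aCSF1R were higher in BF10 than in aCSF1R past the threshold, where 0.735% of all tested genes were, and 8 of 10 did not overlap, against 4.33% of genes. The changes were 3.35 for Aif1 (SE 0.24, adjusted p 0.000198), 3.12 for Lyz2 (SE 0.33, adjusted p 0.00171), 2.71 for Pf4 (SE 0.40, adjusted p 0.00905) and 2.60 for Adgre1 (SE 0.39, adjusted p 0.00980), all by limma. The median change of the 10 was 2.57, beside 0.056 over all genes. In the model with the set 9 of 10 passed, Axl being the exception, where 2.77% of genes did. Fitted to the libraries of these groups alone, 0 of 10 passed here, 1 of 10 in aCSF1R against control (Lyz2) and 2 of 10 in IL-10-Fc against aCSF1R (Aif1 and Lyz2). The change of Axl was -0.095 (95% confidence interval -0.73 to 0.54).

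BF10 replicate 3 bears on these values. It had the highest TPM of the 12 libraries for Adgre1, Cd68, Mertk, Cd14 and Pf4. In the same library 9 neutrophil markers summed to 18602 TPM, while the other 11 libraries lay between 438 and 3395. Without it Adgre1 and Pf4 no longer passed against aCSF1R, while Aif1 and Lyz2 did, so 2 of 10 markers were left. The part of neutrophils in these levels was not tested.

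IL-10-Fc against aCSF1R, which shares the aCSF1R libraries with the comparison above and is not independent of it, gave the same 4 markers, where 0.542% of all genes were higher. The changes were 3.10 for Aif1, 3.00 for Lyz2, 2.63 for Pf4 and 2.29 for Adgre1, with limma adjusted p of 0.000438, 0.00284, 0.0142 and 0.0273. Again 8 of 10 did not overlap, against 5.90% of genes, and the median was 2.34 beside 0.11. In the model with the set 7 passed, where 2.12% of genes did. Adgre1 lost its call in 7 and Pf4 in 4 of the 12 fits that left out 1 library, and both did without IL-10-Fc replicate 4, IL-10-Fc replicate 7 or aCSF1R replicate 6, which left 2 of 10. With median-of-ratios scaling Lyz2 (adjusted p 0.0750) and Pf4 (adjusted p 0.279 by limma) did not pass here, and Pf4 (adjusted p 0.158) did not pass in BF10 against aCSF1R.

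The difference itself was tested by a contrast that takes the change from control to aCSF1R away from the change from IL-10-Fc to BF10. It asks whether a marker changed differently with the antibody when IL-10 was present, although IL-10-Fc and BF10 are different proteins. Aif1 (3.68, SE 0.35, adjusted p 0.00380) and Lyz2 (3.69, SE 0.47, adjusted p 0.0118 by limma) passed, where 0.284% of all tested genes were higher. The estimate was above 0 for 9 of 10 markers, with a median of 2.01 beside -0.28 over all genes, and Axl was at -0.32 (95% confidence interval -1.21 to 0.57). In the model with the set 6 markers passed, where 1.19% of genes did. Without control replicate 4 or IL-10-Fc replicate 2 only Aif1 did. The design holds no group with the antibody and IL-10 given as separate proteins, so joining them and giving both cannot be told apart.

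The order of the groups by mean TPM was alike for several markers. Adgre1, Cd68, Mertk and Cd14 ran BF10, IL-10-Fc, control and aCSF1R from high to low, and Aif1 and Lyz2 ran control, BF10, IL-10-Fc and aCSF1R. Pf4 and Cx3cr1 ran BF10, control, IL-10-Fc and aCSF1R, and Folr2 had IL-10-Fc first, then BF10, control and aCSF1R. The step down to aCSF1R was without overlap except for Mertk. The other neighbours in these orders overlapped, save Adgre1 between IL-10-Fc and control and Cd14 between BF10 and IL-10-Fc. The order of Axl was aCSF1R, IL-10-Fc, BF10 and control, with each neighbouring pair overlapping.

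The estimated falls differed in size between markers, although no ratio of markers given below passed its test. The TPM of Lyz2 relative to that of Adgre1 was 144, 114 and 195 in control and 42.4, 56.6 and 120 in aCSF1R. The log2 ratio of TPM + 1 was lower in aCSF1R by 1.52 (5.60 ± 0.50 against 7.12 ± 0.39, SD, n = 3 each), without overlap, and the two-sided exact permutation p was 0.1, the smallest that 3 against 3 allows (0.240 adjusted over 12 tests). The plain ratio did overlap, since that of aCSF1R replicate 8 lay within the control range, and without a pseudocount the difference was -1.16. This ratio was also lower than control without overlap in BF10 (69.3, 89.9 and 60.7) and in IL-10-Fc (78.9, 85.0 and 86.1). The log2 differences were -1.0 and -0.81, with the same exact permutation p of 0.1 (0.240 adjusted). The log2 ratio of Axl to Mertk was higher in aCSF1R than in control by 0.63, without overlap and with an exact permutation p of 0.1 (0.240 adjusted). The plain ratios did overlap, at 163, 196 and 1539 in aCSF1R and 168, 92.7 and 181 in control.

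Across the 12 libraries Adgre1 tracked the other markers most closely, with a Pearson r of 0.97 between its log2(TPM + 1) and the mean of the other 9, and Axl least, with an r of 0.052. The closest pair was Aif1 and Lyz2 (r = 0.98). These correlations share the libraries and the group differences. With the group means removed, Cd68 and Mertk remained close (r = 0.91) while Pf4 had an r of -0.34 with the mean of the others. These values still hold the difference between the library sets, which was negative for Cd68 and Mertk and positive for Pf4 in estimate. The genes whose pattern was most like the mean of the 10 were Nckap1l (r = 0.994), Fermt3 (r = 0.994), Lrrc25 (r = 0.991), Rab3il1 (r = 0.990) and Trem2 (r = 0.989), over the same 12 libraries. Nckap1l and Fermt3 encode blood cell proteins of the actin and integrin machinery, and Trem2 a lipid-sensing receptor of macrophages. Nckap1l was at 23.3 ± 5.74 TPM in control, 28.3 ± 2.93 in IL-10-Fc, 34.8 ± 14.6 in BF10 and 5.60 ± 2.80 in aCSF1R (SD, n = 3 each).

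The library sets moved the markers unequally. Beyond the group means, Cx3cr1 (-1.74), Mertk (-1.48), Cd68 (-1.29), Folr2 (-0.81) and Axl (-0.45) were lower in the higher-sum libraries on the log2 scale with limma adjusted p below 0.05, and the median over all tested genes was -0.68. The estimates of Adgre1 (-0.36), Cd14 (-0.075), Aif1 (0.015), Lyz2 (0.13) and Pf4 (0.43) did not pass. Spearman's rho between this difference and transcript length was -0.67 over the 10 genes. Cd68 and Folr2, with short transcripts, and Axl and Adgre1, with long ones, departed from that order. Of the 4 markers called in aCSF1R without the term, Aif1, Lyz2 and Pf4 were among those with the set differences nearest to or above 0. Within the lower-sum set (2 aCSF1R libraries against 1 control) and within the higher-sum set (1 against 2), the changes were -2.98 and -3.98 for Aif1, -3.07 and -3.97 for Lyz2, -2.86 and -2.12 for Pf4, and -1.64 and -2.83 for Adgre1. For Axl they were 0.046 and -0.095.

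**Figure D3:**
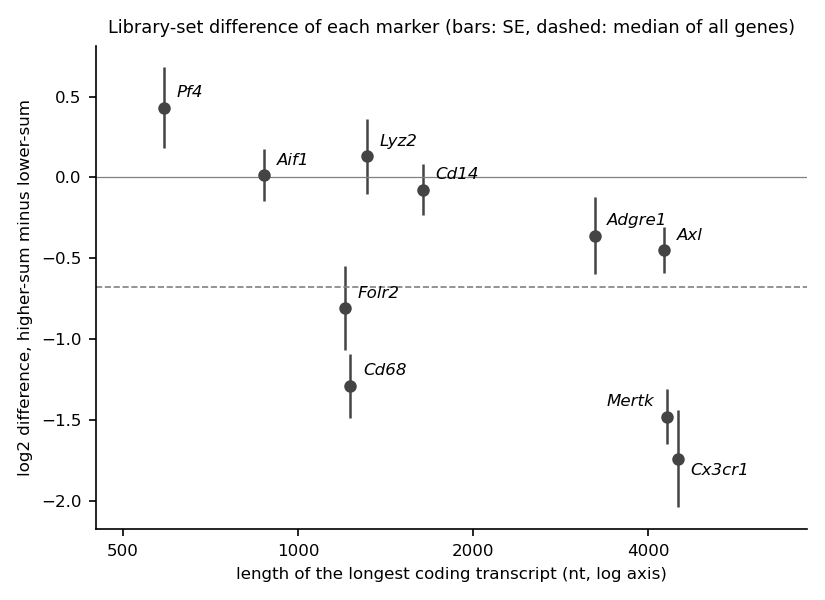
Difference of each marker between higher-sum and lower-sum libraries, with the groups held in the model, against the length of its longest coding transcript (log axis); bars are SE and the dashed line is the median of all tested genes. Pf4, Aif1 and Lyz2 lie at or above 0, and Mertk and Cx3cr1, both with long transcripts, lie lowest.

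Part of the other macrophage genes fell as well. Of 26 such genes, 9 fell past the threshold in aCSF1R against control and 0 rose, where 0.568% of all tested genes fell. The median change of the 26 was -1.92, and the 9 are named here. They were the complement C1q chains C1qc (-4.05), C1qa (-3.98) and C1qb (-3.47), the scavenger and mannose receptors Msr1 (-3.75) and Mrc1 (-2.96), the Fc receptor parts Fcgr1 (-3.01) and Fcer1g (-2.31), the adaptor Tyrobp (-2.60) and the protease Ctss (-2.76), with limma adjusted p from 6.4e-05 to 0.00905. In BF10 against aCSF1R 12 of 26 were higher, where 0.735% of all tested genes were. These were the same 9 and Trem2 (2.73), Ms4a7 (3.16) and Spi1 (2.62), the gene of PU.1. Summed over the list, the level was 4544 to 5585 TPM in control, 4207 to 6219 in IL-10-Fc, 588 to 1889 in aCSF1R and 4509 to 7605 in BF10. Gpnmb (0.48) and Ctsb (0.22) were the 2 of the 26 whose estimate in aCSF1R was above 0, and they are named after their values were seen. In the model with the set Ctsb was at -0.48 and Gpnmb at 0.24. Neither passed there, nor did Cd163, Lyve1 and Vsig4. All others of the 26 fell past the threshold in aCSF1R in that model, where 1.93% of all genes fell.

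Csf1r, the gene of the antibody's target, was at 18.8, 92.7 and 38.4 TPM in control and 20.6, 14.1 and 1.26 in aCSF1R. It was at 88.8, 89.8 and 36.4 in IL-10-Fc and 140, 26.7 and 101 in BF10. The aCSF1R and control libraries overlapped. Higher-sum libraries were low within each group, and whether the library set accounts for the overlap was not tested. The change of Csf1r, -2.21, did not pass (limma adjusted p 0.893, and 0.00131 at -2.89 in the model with the set).

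Ligands and partners of the markers did not pass in either direction in aCSF1R against control (0 of 7: Gas6, Pros1, Tyro3, Cx3cl1, Tlr4, Ly96 and Lbp). None of these 7 had an unadjusted p below 0.05 in limma, against 537 of all 15504 genes, and their median was 0.21. Pros1, a TAM receptor ligand, changed by 0.14 in estimate (SE 0.28), and Cx3cl1, the ligand of CX3CR1, by 1.00 (SE 0.58, adjusted p 0.893).

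Of 7 monocyte genes 1 passed, the chemokine receptor Ccr2, which draws monocytes out of the bone marrow. It was at 88.2, 56.9 and 72.2 TPM in control, 35.9, 51.4 and 60.7 in IL-10-Fc, 13.8, 9.23 and 11 in aCSF1R, and 74.7, 67.2 and 55.8 in BF10. The aCSF1R libraries stood well below the rest. From control to aCSF1R the change was -2.57 (limma adjusted p 0.00137), and it was 2.44 in BF10 against aCSF1R (limma adjusted p 0.00197). The other monocyte genes had estimates from -0.89 for Treml4 to 0.90 for Nr4a1 in aCSF1R against control, and Ly6c2 was at -0.17.

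Markers of the other cells in the tumor did not pass in aCSF1R against control. This held for 9 neutrophil, 5 dendritic cell, 6 NK and T cell, 6 fibroblast, 5 tumor epithelium, 3 endothelial, 2 eosinophil and 2 platelet genes that were tested. Their medians ran from -0.22 for platelet to 0.60 for fibroblast genes, and 1 gene each of the platelet and the NK and T cell lists had an unadjusted p below 0.05. These were Ppbp and, named after its value was seen, Klrb1c (-0.93, limma adjusted p 0.621). The most abundant were S100a9 (-0.18) and S100a8 (-0.28) of neutrophils, Krt18 (0.11) and Krt8 (0.29) of epithelium, Col1a1 (0.75) and Col1a2 (0.69) of fibroblasts, and Pecam1 (0.43) and Cdh5 (0.22) of endothelium. Batf3 (0.15) and Zbtb46 (0.25) stood for dendritic cells, Prf1 (0.60) and Cd3d (-0.47) for NK and T cells, Prg2 (0.75) and Ccr3 (-0.43) for eosinophils, and Itga2b (0.80) and Ppbp (-1.23, adjusted p 0.532) for platelets. The SE of the genes named here ran from 0.28 for Ccr3 to 1.11 for Col1a1, so a change in many of them was not excluded. Epithelial markers summed to 1090 to 2420 TPM in control and 746 to 2489 in aCSF1R, so epithelial RNA was present in each of these groups.

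**Figure D4:**
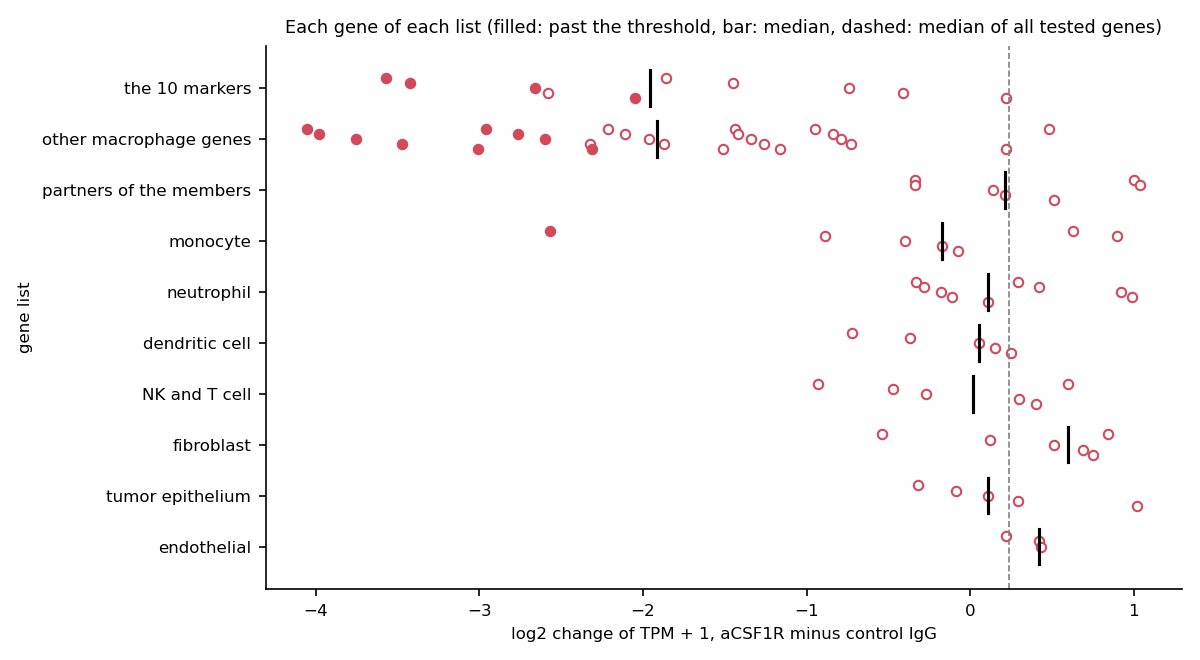
Change of each gene in aCSF1R against control on the log2(TPM + 1) scale, by gene list, filled where the threshold was passed, with a bar at the median of the list and a dashed line at the median of all tested genes (0.24). The medians of the 10 markers (-1.96) and of the other macrophage genes (-1.92) lie below those of the other lists drawn, which run from -0.17 to 0.60. The platelet and eosinophil lists, with 2 tested genes each, are not drawn.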

How the data were processed

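The authors deposited FPKM values with 2 decimals for each gene in 12 libraries. Per the study's methods, RNA was extracted with TRIzol, stranded libraries were made from polyadenylated RNA, and reads were aligned to mm10 (GRCm38.101). The submitters' processing notes name STAR 2.7.5a, RSEM 1.3.3 and DESeq2 1.28.0, without a role. A further 4 tables hold the authors' own comparisons (fold changes and p-values) and were not used. Each FPKM column was matched to its sample by name.

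FPKM was rescaled to 1000000 per library (TPM). Genes that reached a TPM of 1 in 3 or more libraries were tested with limma 3.58.1 (trend) in R 4.3.3 on log2(TPM + 1), with 1 mean per group. The fit was tested on data simulated with independent noise and no difference between library sets, so that test does not cover the sets. FPKM holds no counts, so the counting error of single values is unknown. The boundary between library sets was an FPKM sum of 700000. The ratios of 2 markers were compared with two-sided exact permutation tests.

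The markers, the lists, the tests and the library sets were chosen with earlier results of these data known. All markers were named. Of each other list, the genes past the threshold in aCSF1R against control or BF10 against aCSF1R were named, or, where none passed, the 2 most abundant, and so were the 5 genes most like the markers. Gene positions are from GENCODE M21. Alternatives were another pseudocount, scaling, filter, error model, weights, the library set, a replicate block and leaving out each library.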

Additional observations from a re-analysis of the deposited data

Results flagged for a closer look

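The change from IL-10-Fc to BF10 differed from the change from control to aCSF1R for 2 markers, by a limma contrast that tests this difference itself. IL-10-Fc and BF10 are different proteins, so the contrast is not the antibody added to the same form of IL-10. The difference was 3.68 on the log2 scale for Aif1 (SE 0.35, adjusted p 0.00380) and 3.69 for Lyz2 (SE 0.47, adjusted p 0.0118). In both genes the 3 aCSF1R libraries were below all 9 other libraries. Over the 22 alternatives the value ran from 3.36 to 3.98 for Aif1 (adjusted p up to 0.0269) and from 3.09 to 4.03 for Lyz2 (adjusted p up to 0.0870). Groups of 3 are too small for a test of single outlying samples.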

How the results depend on the processing

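Of 898 marker changes recomputed under the alternatives, 794 kept their direction and their side of the threshold, 49 no longer passed, 42 newly passed and 13 turned direction; these 13 concern Axl and Mertk, whose intervals span 0. The cause of each shift below was not tested. In aCSF1R against control, BF10 against aCSF1R and IL-10-Fc against aCSF1R, 4 of 10 markers passed each. Sample quality weights gave 8 (7 lower, and Axl higher at 0.64), 7 and 9 there. The library set as a term gave 7, 9 and 7, where 1.93% of all genes fell and 2.77% and 2.12% were higher. Shares of all genes under the other alternatives are not given here, so marker counts under them cannot be set beside other genes. A fit to only the groups compared, which has fewer samples to estimate the spread, gave 1, 0 and 2. The weights also gave 4 markers each for BF10 and IL-10-Fc against control, where 0 passed, but their fit did not converge. For the contrast of the antibody with and without IL-10 (2 markers) the weights gave 6, the set term 6 and the median of ratios 1. Leaving out 1 library gave 2 to 4 markers in each of the first 3 comparisons (2 without control replicate 4 or aCSF1R replicate 6 in aCSF1R against control) and 1 to 2 in the contrast.

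The direction turned for Mertk in aCSF1R against control with the weights (0.36) and without aCSF1R replicate 8 (0.057, and -0.66 without aCSF1R replicate 4 at the other end), and in the contrast with the weights (-0.21). For Axl it turned in aCSF1R against control with the median of ratios (-0.013). In BF10 against aCSF1R it turned with the replicate block (0.093) and without aCSF1R replicate 4 (0.0069), aCSF1R replicate 6 (0.074) or BF10 replicate 6 (0.019), and the range with 1 library left out was -0.37 to 0.074. In IL-10-Fc against aCSF1R it turned with FPKM not rescaled (-0.027), the median of ratios (-0.20), the weights (-0.23), and without IL-10-Fc replicate 7 (-0.0021) or aCSF1R replicate 8 (-0.27, and 0.17 without aCSF1R replicate 6 at the other end). The log2 ratio of Axl to Mertk, 0.63, was 1.14 with a pseudocount of 0.1 and 1.38 without one, the latter added after the values were seen.

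Some replicate numbers recur between groups, but nothing says that they pair the tumors, and the correlation within numbers was -0.366. With the replicate block 3 markers passed in aCSF1R against control, 4 in BF10 against aCSF1R and 3 in IL-10-Fc against aCSF1R, the marker lost being Adgre1.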
